A study of Homo sapiens with 9 samples.

Results

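The genes described here are PDGFRA, the receptor for platelet-derived growth factor (PDGF) encoded at chromosome band 4q12, and 9 genes tied to it by function or position. They are the related receptor genes PDGFRB, KIT and KDR, the ligand genes PDGFA, PDGFB and PDGFC, and the neighbours FIP1L1, LNX1 and CHIC2, which makes 10 of the 52158 named genes in the count table. They were chosen by the PDGFRA counts, which were high in the column of ESO-26 and in no other, so that pattern is described without a test and supports nothing further. RNA was sequenced from 9 established human cell lines, ESO-26, ESO-51, FLO-1, JH_EsoAd1, OAC_5.1_C, OACP4_C, OE19, OE33 and SK-GT-4. The labels give oesophageal adenocarcinoma as the cell type and gastric cardia adenocarcinoma as the source. All 9 lines were untreated and taken at 80% confluency, and the labels name no genetic modification in any of them. Every line has 1 library, so nothing here has a replicate check, and differences between libraries are descriptions of these libraries.

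PDGF ligands are dimeric growth factors, and their binding pairs receptor chains of the alpha (PDGFRA) and beta (PDGFRB) type, which then phosphorylate each other and start RAS-MAP kinase, PI3-kinase and phospholipase C signalling. The alpha receptor is known mainly from mesenchymal and glial progenitor cells, and the beta receptor from pericytes, smooth muscle and fibroblasts, while tumour epithelium more often supplies ligand. KIT, the stem cell factor receptor of mast cells, melanocytes and interstitial cells of the gut, and KDR, the main vascular endothelial growth factor receptor of endothelium, lie beside PDGFRA on 4q12. Amplification of this gene cluster, and fusion of FIP1L1 to PDGFRA through loss of the DNA between them, are textbook events in other tumours.

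The stretches before the transcription starts of PDGFRA are shown with those of CHIC2 and KIT, members of the set on either side, because PDGFRA and CHIC2 were high in ESO-26 while KIT was not. RefSeq promoter windows of 300 bases (250 before a start and 50 after it, build GRCh38.p14) were matched by symbol for 8 of the 10 genes, in 12 windows. Only bases before any annotated exon are printed, in the gene's own direction, with CCAAT and GGGCGG motifs on either strand in capitals. PDGFRA has entries for a pair of starts. The stretches are chr4:54229043-54229096 (plus strand) for the first PDGFRA start, chr4:54233710-54233959 (plus strand) for the second, chr4:54064691-54064855 (minus strand) for CHIC2 and chr4:54657707-54657917 (plus strand) for KIT.
PDGFRA start 1: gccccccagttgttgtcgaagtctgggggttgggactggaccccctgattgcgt
PDGFRA start 2: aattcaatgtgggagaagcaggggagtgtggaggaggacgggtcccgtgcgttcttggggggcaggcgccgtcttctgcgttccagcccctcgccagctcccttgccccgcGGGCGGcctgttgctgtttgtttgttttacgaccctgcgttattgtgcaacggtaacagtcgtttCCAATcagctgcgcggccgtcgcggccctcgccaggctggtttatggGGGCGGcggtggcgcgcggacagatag
CHIC2: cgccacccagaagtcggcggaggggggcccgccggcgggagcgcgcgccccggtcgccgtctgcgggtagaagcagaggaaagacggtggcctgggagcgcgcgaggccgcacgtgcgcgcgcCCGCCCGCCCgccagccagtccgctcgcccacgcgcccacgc
KIT: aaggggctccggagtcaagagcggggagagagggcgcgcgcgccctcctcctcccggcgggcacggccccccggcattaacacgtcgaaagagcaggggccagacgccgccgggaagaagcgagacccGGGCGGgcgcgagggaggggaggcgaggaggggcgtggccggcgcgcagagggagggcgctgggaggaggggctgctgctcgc
The second PDGFRA stretch held 1 CCAAT and 2 GGGCGG motifs, and the first held neither. CHIC2 held 2 GGGCGG motifs, which overlap each other, and KIT held 1. Both motifs are common, with CCAAT in 34.6% and GGGCGG in 45.0% of all 35116 full windows of 300 bases. The printed stretches are shorter, at 54 and 250 bases for PDGFRA, 165 for CHIC2 and 211 for KIT, so those shares do not apply to them. In its full window CHIC2 held 4 GGGCGG motifs, and the PDGFRA and KIT windows held as many of both motifs as printed. The window at the second PDGFRA start was 66.7% G or C with 32 CG dinucleotides, that at the first 47.0% with 8, that of CHIC2 77.0% with 48 and that of KIT 74.3% with 38. A match is a description of letters and not of a bound site.

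Levels are normalised count rates (CPM) after TMM scaling, with exact Poisson 95% intervals that cover counting error only, as do the limits given for a count of 0, which are worth 3 counts. The table held from 16801179 counts (ESO-26) to 69881539 (FLO-1), so a count of 0 allowed up to 0.173 CPM in ESO-26 and 0.0400 CPM in FLO-1. ESO-26 went against the epithelial label, and OE33 did so in part. All 6 epithelial markers examined were over 4-fold lower in ESO-26 than the median of the other libraries and 4 of 6 were in OE33, with a summed level of 163 CPM in ESO-26 and 1204 in OE33, against 3765 to 14377 CPM elsewhere. ESO-26 had 3 counts of CDH1, the E-cadherin gene, and EPCAM was 0.189 CPM in OE33. The keratin genes KRT8 (903 CPM) and KRT18 (247 CPM) were the OE33 markers not over 4-fold lower. Of all genes, 5.81% were called lower in ESO-26 and 3.77% in OE33 by the rule given below. ERBB2 was 185 CPM in the library labelled OE19, although that line is widely used for its amplified ERBB2 gene, and the highest level, 18325 CPM, was in that labelled SK-GT-4. Each library is called by the label it carries, and every call, including those in ESO-26 and OE33, rests on those labels. In bulk RNA of this kind, fewer cells with a transcript and less of it per cell cannot be told apart.

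Across the 10 genes, a level was called higher or lower where it lay at least 4-fold from the median of the other 8 libraries on the log2(CPM + 1) scale, with the higher of the compared levels at 5 CPM or more. Of 90 pairs of gene and library, 7 were higher and 7 lower by this rule. Over the 19719 genes that reached 1 CPM in any library, 3.78% of pairs were higher and 2.49% lower. PDGFRA, PDGFB and PDGFC were higher in ESO-26, where 3.55% of all genes were, and PDGFA was lower there, as were 5.81% of all genes. In all, 6 of the 10 genes had a call in at least 1 library, against 27.8% of all genes. That count and the 7 higher pairs include PDGFRA in ESO-26, a call fixed by how the genes were chosen. KIT is in the 90 pairs but not among the 19719 genes, so the counts and shares are set side by side as a description only. CHIC2, FIP1L1 and PDGFB reached 1 CPM in all 9 libraries, as did 53.2% of all genes, whereas KIT reached it in none. By library, the share of all genes called higher was 2.96% in OACP4_C, 3.4% in OE19, 4.58% in FLO-1, 4.24% in SK-GT-4, 4.1% in OE33, 3.29% in ESO-51, 4.23% in OAC_5.1_C and 3.66% in JH_EsoAd1. The share called lower was 1.34% in OACP4_C, 3.18% in OE19, 0.857% in FLO-1, 2.81% in SK-GT-4, 3.77% in OE33, 2.4% in ESO-51, 1.24% in OAC_5.1_C and 1.03% in JH_EsoAd1. Each comparison draws on the same libraries, so calls of 1 gene in several libraries are not independent. Without ESO-26 the counts were 5 higher and 4 lower.

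**Figure D1:**
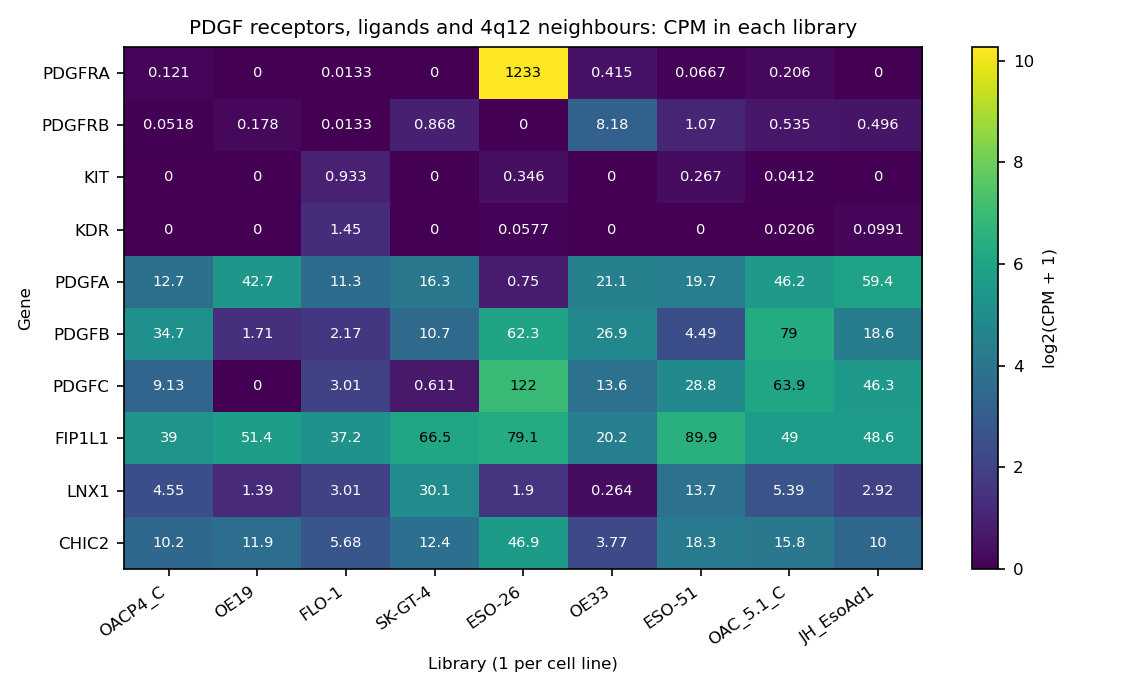
CPM of the 10 genes (rows) in the 9 libraries (columns, 1 per line), with the value printed in each cell and the colour giving log2(CPM + 1). PDGFRA stands at 1233 CPM in ESO-26 and at most 0.415 CPM elsewhere, while FIP1L1 and CHIC2 are present in all libraries.

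PDGFRA was present in ESO-26 and close to absent in the other 8 libraries. ESO-26 held 21372 counts of it, equal to 1233 CPM (95% interval 1216 to 1249) and 0.127% of all counts (Wilson 95% interval 0.126% to 0.129%), which placed it 75th among the genes of that library. The next library was OE33 with 11 counts (0.415 CPM, 0.207 to 0.742), followed by OAC_5.1_C with 10 counts (0.206 CPM) and OACP4_C with 7 counts (0.121 CPM). ESO-51 had 3 counts, FLO-1 had 1, and OE19, SK-GT-4 and JH_EsoAd1 had 0, which allows up to 0.107, 0.0965 and 0.149 CPM in them. From OE33 downward the intervals of neighbouring libraries in this order overlapped, but the OE33 interval lay wholly above those of ESO-51, FLO-1, OE19, SK-GT-4 and JH_EsoAd1. ESO-26 exceeded OE33 2971-fold (95% interval 1660 to 5953, counting error), and it was at least 8289-fold above JH_EsoAd1, taken at 3 counts. On the log2(CPM + 1) scale it lay 9.77 above OE33 and 10.21 above the median of the other libraries. The range of PDGFRA over the 9 libraries was wider than that of 99.9% of genes at 1 CPM or more. That rank rests on the ESO-26 level by which the genes were chosen, and it supports nothing further.

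The PDGFRA count depended a little on how reads over overlapping genes were assigned. The union count used throughout leaves out reads that touch more than 1 gene model, and GENCODE release 29 holds a further gene model that overlaps both FIP1L1 and PDGFRA. The deposited count that keeps a read where 1 gene covers it more fully (intersection-nonempty) was 23173 in ESO-26, which is 1801 more. In OAC_5.1_C it was 12 in place of 10, and for no other of the 10 genes or libraries did the counting modes differ. FIP1L1 had 1371 counts in ESO-26 in both modes. The annotation release behind the counts was not given, and the part of the further gene model in the PDGFRA difference was not tested. The counts say nothing of fusion transcripts, since they hold no reads across a junction.

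PDGFRB, the beta receptor, was found in other libraries than PDGFRA. OE33 held 217 counts (8.18 CPM, 95% interval 7.13 to 9.35), which was called higher. ESO-51 followed at 1.07 CPM (48 counts), SK-GT-4 at 0.868 CPM, OAC_5.1_C at 0.535 CPM and JH_EsoAd1 at 0.496 CPM. OE19 had 5 counts, OACP4_C 3 and FLO-1 1. ESO-26 had 0 counts, which allows up to 0.173 CPM. OE33 exceeded ESO-51 by 7.67-fold (5.59 to 10.7) and ESO-26 by at least 47.3-fold, and from ESO-51 downward neighbouring intervals overlapped. The 2 PDGF receptor genes were thus each highest in a different one of the 2 libraries with the lowest summed epithelial markers. OE33 held 11 counts of PDGFRA beside its 217 of PDGFRB, and OAC_5.1_C held 10 beside 26.

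KIT and KDR, the receptor genes next to PDGFRA on the chromosome, stayed low in ESO-26. KIT had 6 counts there (0.346 CPM, 0.127 to 0.753) and KDR had 1 (0.0577 CPM). Both were highest in FLO-1, KIT with 70 counts (0.933 CPM, 0.727 to 1.18) and KDR with 109 counts (1.45 CPM, 1.19 to 1.75). FLO-1 exceeded ESO-26 in KIT by 2.70-fold (1.18 to 7.599). KIT had 12 counts in the deeper ESO-51 library (0.267 CPM), 2 in OAC_5.1_C and 0 in the other 5 libraries. ESO-26 was thus next after FLO-1 in KIT, and its interval overlapped those of FLO-1 and ESO-51. KDR had 2 counts in JH_EsoAd1, 1 in OAC_5.1_C and 0 in 5 libraries, so FLO-1 exceeded JH_EsoAd1 14.7-fold with a wide counting interval of 3.96 to 123. Neither gene met the 5 CPM needed for a call in any library. Compared per gene length with the deposited FPKM, PDGFRA made up 99.9% of the summed level of the 4 receptor genes in ESO-26, at 66.9 FPKM against 0.0366 for KIT and 0.00516 for KDR. In FLO-1, KDR was 56.5% and KIT 42.9% of the corresponding sum.

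Each ligand gene had its own order of libraries, and in ESO-26 they diverged. PDGFA, which encodes the A chain that binds the alpha receptor, was lowest in ESO-26 with 13 counts (0.750 CPM, 0.399 to 1.28). Elsewhere it was 59.4 CPM in JH_EsoAd1, 46.2 in OAC_5.1_C, 42.7 in OE19, 21.1 in OE33, 19.7 in ESO-51, 16.3 in SK-GT-4, 12.7 in OACP4_C and 11.3 in FLO-1. All of these libraries lay far above ESO-26, and even FLO-1 exceeded it 15.0-fold (8.74 to 28.3). On the log2(CPM + 1) scale PDGFA in ESO-26 was 3.61 below the median of the other libraries, its only call. The intervals of OAC_5.1_C and OE19, of OE33 and ESO-51, and of OACP4_C and FLO-1 overlapped.

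PDGFB, whose B chain binds both receptors, was higher in OAC_5.1_C and ESO-26. It was 79.0 CPM in OAC_5.1_C, 62.3 in ESO-26, 34.7 in OACP4_C, 26.9 in OE33, 18.6 in JH_EsoAd1, 10.7 in SK-GT-4, 4.49 in ESO-51, 2.17 in FLO-1 and 1.71 in OE19. Against the medians of the other libraries the log2 difference was 2.40 in OAC_5.1_C and 2.06 in ESO-26. It was -2.09 in ESO-51, -2.88 in FLO-1 and -3.11 in OE19. OAC_5.1_C exceeded ESO-26 by 1.27-fold (1.18 to 1.36), and the FLO-1 and OE19 intervals overlapped. The call in ESO-26 sat near the threshold and was lost, at 1.69, when OE19, FLO-1, SK-GT-4 or ESO-51 was left out of the median, and at 1.80 with a pseudocount of 5. The call in ESO-51 was lost, at -1.84, without OACP4_C, ESO-26, OE33 or OAC_5.1_C.

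PDGFC, whose product must be cut by proteases before it binds the alpha receptor, was highest in ESO-26. Levels were 122 CPM in ESO-26 (117 to 127), 63.9 in OAC_5.1_C, 46.3 in JH_EsoAd1, 28.8 in ESO-51, 13.6 in OE33, 9.13 in OACP4_C, 3.01 in FLO-1 and 0.611 in SK-GT-4, with 0 counts in OE19 (up to 0.107 CPM). No neighbours in this order had overlapping intervals among the 8 libraries with counts, and ESO-26 exceeded OAC_5.1_C by 1.91-fold (1.81 to 2.02) and OE19 by at least 1142-fold. The log2 difference was 3.34 in ESO-26 and 2.42 in OAC_5.1_C, and JH_EsoAd1 at 1.96 fell just short of a call. It was -4.38 in OE19, -3.69 in SK-GT-4 and -2.38 in FLO-1. The FLO-1 call was lost, at -1.86, without ESO-26, ESO-51, OAC_5.1_C or JH_EsoAd1. PDGFC lies on chromosome 4 as well, but outside the run of neighbours around PDGFRA.

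The fourth ligand gene, PDGFD, is not among the 10 but was on a list of related ligands, and it followed PDGFRA in being high in ESO-26. PDGFD, whose product is also protease-activated and binds mainly the beta receptor, had 9196 counts in ESO-26 (530.4 CPM), 122 in JH_EsoAd1 (6.05 CPM) and 1 to 3 in each other library. ESO-26 exceeded JH_EsoAd1 by 87.7-fold (73.4 to 106). Per gene length PDGFD made up 74.3% of the summed level of the 4 ligand genes in ESO-26, PDGFB 14.9%, PDGFC 10.7% and PDGFA 0.131%. PDGFA was the largest share in OE19 (94.7%), FLO-1 (71.3%), JH_EsoAd1 (52.5%), SK-GT-4 (51.9%) and ESO-51 (48.9%), and PDGFB in OACP4_C (73.3%), OAC_5.1_C (58.0%) and OE33 (56.9%). Deposited FPKM is relative to all counts in the file of a line, of which 77.3% lie outside the table in JH_EsoAd1 and 25.8% to 51.0% elsewhere, so levels per length were compared between libraries as CPM per kilobase. On that scale the ligand sum was 96.1 in ESO-26, 31.3 in OAC_5.1_C, 18.98 in JH_EsoAd1 and between 2.65 (FLO-1) and 10.9 (OACP4_C) in the others. In ESO-26 PDGFRA exceeded PDGFB 6.10-fold and PDGFC 8.48-fold per gene length.

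**Figure D2:**
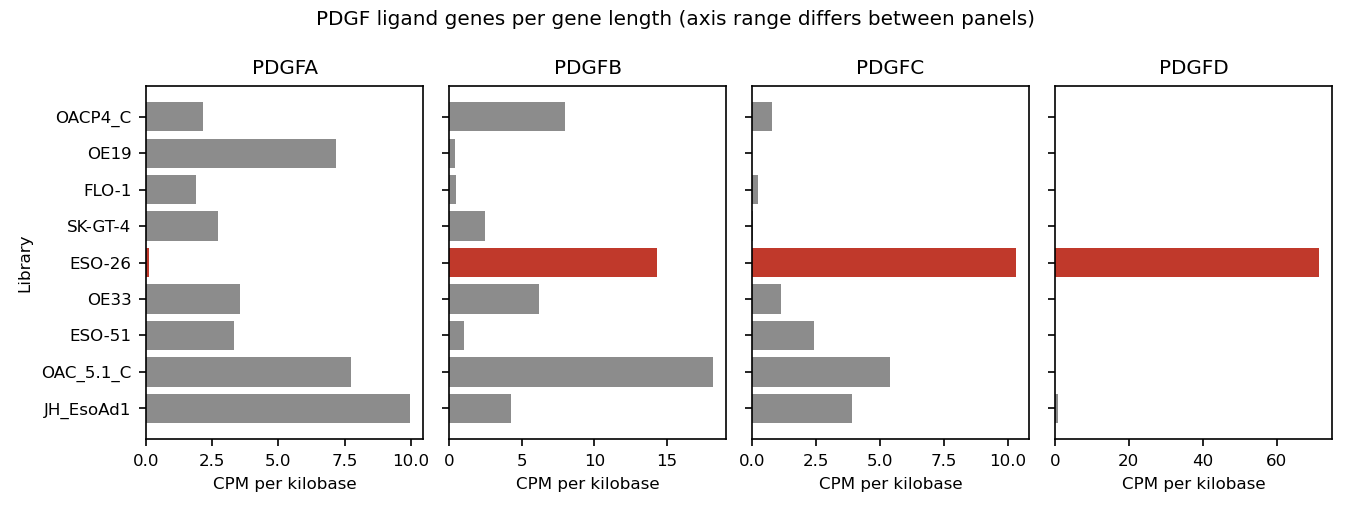
CPM per kilobase of gene length (x axis, with a different range in each panel) of the 4 PDGF ligand genes in the 9 libraries, 1 bar per library and ESO-26 in red. PDGFB, PDGFC and PDGFD are at 14.3, 10.3 and 71.4 CPM per kilobase in ESO-26, while PDGFA is at 0.126 there.

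The 3 neighbours on the other side of PDGFRA differed from one another. CHIC2, which encodes a small membrane-associated protein, was highest in ESO-26 at 46.9 CPM (43.7 to 50.2). ESO-51 followed at 18.3 CPM, OAC_5.1_C at 15.8, SK-GT-4 at 12.4, OE19 at 11.9, OACP4_C at 10.2, JH_EsoAd1 at 10.01, FLO-1 at 5.68 and OE33 at 3.77. ESO-26 thus stood apart, 2.57-fold above ESO-51 (2.33 to 2.83), while the intervals from SK-GT-4 to JH_EsoAd1 overlapped with their neighbours. Its log2 difference of 1.99 was just short of a call in ESO-26, and reached 2.08 with library size alone, 2.005 with DESeq2 size factors and 2.09 without OE19, SK-GT-4, ESO-51 or OAC_5.1_C.

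FIP1L1, a subunit of the machinery that cleaves and polyadenylates mRNA, had the narrowest range of the genes at 1 CPM in all libraries among the 10. It ran from 20.2 CPM in OE33 over a median of 49.0 CPM to 89.9 CPM in ESO-51, with 79.1 CPM (74.9 to 83.4) in ESO-26. ESO-51 exceeded ESO-26 by 1.14-fold (1.07 to 1.21), and no library was called. The log2 difference in ESO-26 was 0.69. LNX1, a ubiquitin ligase that binds the Notch regulator NUMB, was low in ESO-26 at 1.90 CPM (1.31 to 2.67) and highest in SK-GT-4 at 30.1 CPM, where its difference of 2.97 was called. ESO-51 held 13.7 CPM and, at 1.89, fell short, and the remaining libraries ranged from 0.264 CPM in OE33 (7 counts) to 5.39 CPM in OAC_5.1_C. The ends of FIP1L1 and LNX1 overlap on opposite strands and the strand setting was not given in the sources used here, so reads from the overlap cannot be assigned with certainty.

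Genes farther out on 4q12 were examined in chromosomal order from OCIAD1 to SRP72. In ESO-26, GSX2, a homeobox gene of forebrain progenitors that lies between CHIC2 and PDGFRA, had 1590 counts (91.7 CPM), against 11 in OAC_5.1_C, 3 in ESO-51 and 0 elsewhere, a ratio to OAC_5.1_C of 405 (226 to 813). So GSX2, CHIC2 and PDGFRA were each highest in ESO-26, whereas LNX1 before them and KIT and KDR after them were not. Of the 21 other genes of the region that reached 1 CPM, GSX2 and ERVMER34-1 (17.1 CPM) were called higher in ESO-26 and none lower. Of all genes, 3.55% were higher and 5.81% lower there. The median difference of the 21 was 0.57 on the log2 scale, with 7 over 2-fold above and OCIAD2 over 2-fold below, beside medians of 0.17 over 546 protein-coding genes of chromosome 4 and -0.02 over all genes. SGCB, DANCR, SCFD2 and SRD5A3 were highest in ESO-26 too, 1.46 to 1.82 above the median of the other libraries, which is under the 4-fold threshold. In OE33 the region's median was -0.97, with 9 genes over 2-fold below, and that of chromosome 4 was -0.66. DNA copy number was not measured here.

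**Figure D3:**
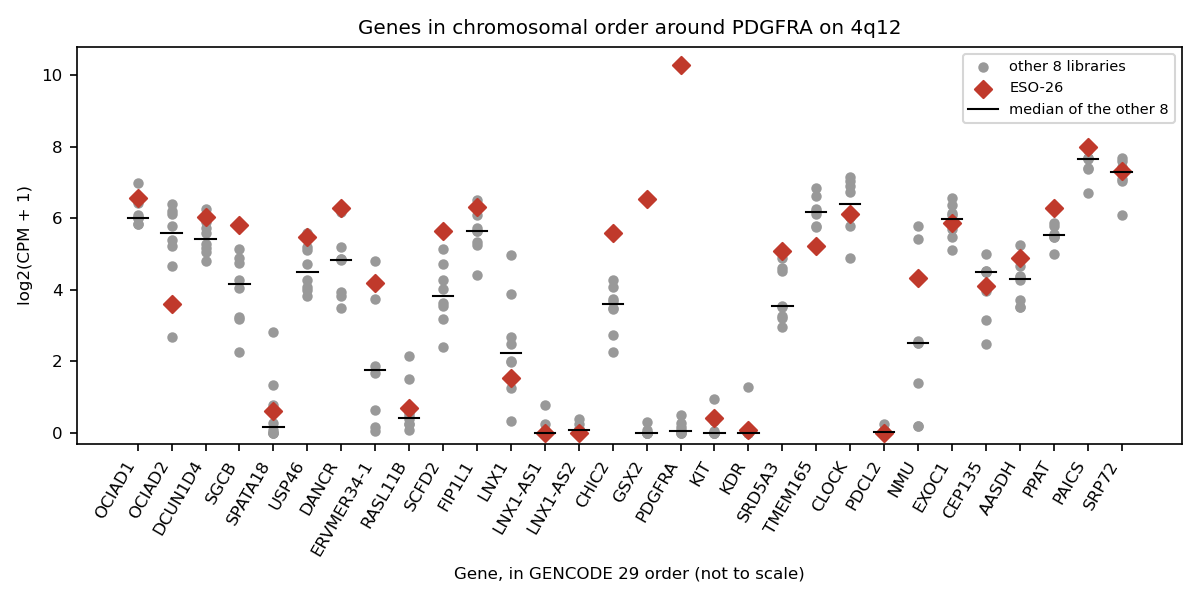
Levels on the log2(CPM + 1) scale (y axis) of genes in chromosomal order around PDGFRA (x axis, not to scale), with ESO-26 as red diamonds, the other 8 libraries as grey points and their median as a line. ESO-26 lies above all other libraries at CHIC2 (46.9 CPM), GSX2 (91.7 CPM) and PDGFRA (1233 CPM), and within their spread at FIP1L1, LNX1, KIT and KDR.

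Other genes of the pathway were read from lists. The shares of all genes called in each library, given above, apply beside each list count. Of 3 receptor-related genes at 1 CPM or more, PDGFRL, which encodes a receptor-like protein without a kinase, was higher in ESO-26 (23.2 CPM) and OE33 (7.28 CPM), and the lymphatic receptor gene FLT4 was higher in OE33 (20.4 CPM). Of 8 further ligand genes, PDGFD was higher in ESO-26 and KITLG, the ligand gene of KIT, was lower there with 9 counts (0.519 CPM) against 8.45 CPM in OE33, the next lowest. ESO-26 therefore held little of either KIT or its ligand. VEGFA, a ligand gene of KDR, was higher in SK-GT-4 (493 CPM) and ESO-51 (399.7 CPM), and VEGFC was higher in FLO-1 (15.9 CPM), the library with the most KDR. Across the 9 libraries the further ligands had 5 higher and 1 lower of 72 pairs, against 3.78% and 2.49% of pairs over all genes.

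Proteases and co-receptors that process or bind PDGF and VEGF ligands were low in ESO-26, with 5 of 6 called lower, 0 higher and a median of -3.07. Of all genes, 5.81% were called lower in ESO-26. PLAT, the protease known to activate the PDGFC product, was 0.461 CPM there (8 counts), and PLAU, known to activate that of PDGFD, was 0.288 CPM (5 counts). The co-receptor genes NRP1 (10.1 CPM) and NRP2 (0.115 CPM) and the endocytic receptor gene LRP1 (17.3 CPM) were the others. FURIN, the general proprotein convertase gene, was not called and made up most of the summed level of the list in ESO-26 (71.7 of 100.003 CPM). PDGFC and PDGFD were highest in ESO-26, where PLAT and PLAU were low. PLAT was highest in OE19 (1215 CPM), the library with 0 counts of PDGFC, and PLAU in OACP4_C (998 CPM). The libraries next to ESO-26 in PDGFC went the other way, with PLAT called higher in OAC_5.1_C (233 CPM) and JH_EsoAd1 (34.7 CPM). PLAT was lower still in ESO-51 (0.156 CPM), and PLAU in SK-GT-4 (0.257 CPM), than in ESO-26. Over all libraries this list had 16 higher and 17 lower of 54 pairs, against 3.78% and 2.49% of pairs over all genes. Large differences in it were thus not limited to ESO-26.

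Adaptors, kinases and transcription factors that act directly on active receptors were mostly not called in ESO-26. Of 17 such genes, STAT5A was the only one called in ESO-26, lower at 0.519 CPM (9 counts) against 7.14 to 120 CPM elsewhere, and the median of the list was -0.81. The adaptor genes GRB2 (49.8 CPM) and SHC1 (361 CPM) and the phosphatase gene PTPN11 (164 CPM) were among those measured beside PDGFRA. Over all libraries the list had 5 higher and 1 lower of 153 pairs, against 3.78% and 2.49% of pairs over all genes, and the 5 included STAT3 (1017 CPM) and SHC1 (672 CPM), both higher in OE33.

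Genes that are known to be induced by receptor tyrosine kinase signalling, or to restrain it, were low in the library with high PDGFRA. In ESO-26, 15 of 17 were lower and 0 higher, beside 5.81% of all genes lower and 3.55% higher there. The median was -2.87 beside -0.02 over all genes. The dual-specificity phosphatase genes DUSP4 (0.519 CPM, median of the others 227 CPM) and DUSP6 (0.346 CPM, median 36.9 CPM) were lowest relative to the other libraries, with log2 differences of -7.23 and -4.82. Next were the ETS factor genes ETV4 (0.692 CPM) and ETV5 (0.634 CPM) and the immediate early gene FOS (1.21 CPM). The Sprouty genes SPRY1, SPRY2 and SPRY4, which encode inhibitors of the RAS pathway, were at 5.08, 1.04 and 0.288 CPM. SPRED1 (20.6 CPM) and PTPN1 (32.5 CPM) were the 2 not called. The other libraries had 12 higher and 8 lower pairs between them. OE33, next lowest in summed epithelial markers, had 4 lower of 17, beside 3.77% of all genes there, and a median of -0.75. ESO-51, with no epithelial marker called lower, had 2 lower and a median of -0.50. ESO-26 had both the lowest summed epithelial markers and the high PDGFRA. In a single library the part of either in these levels cannot be told apart, and it was not tested. With a pseudocount of 5 the count in ESO-26 was 8, with rescaled FPKM it was 4 and with deposited FPKM it was 1. On the FPKM scale a minimum of 5 is a higher bar for long genes, and the pseudocount weighs more on them.

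**Figure D4:**
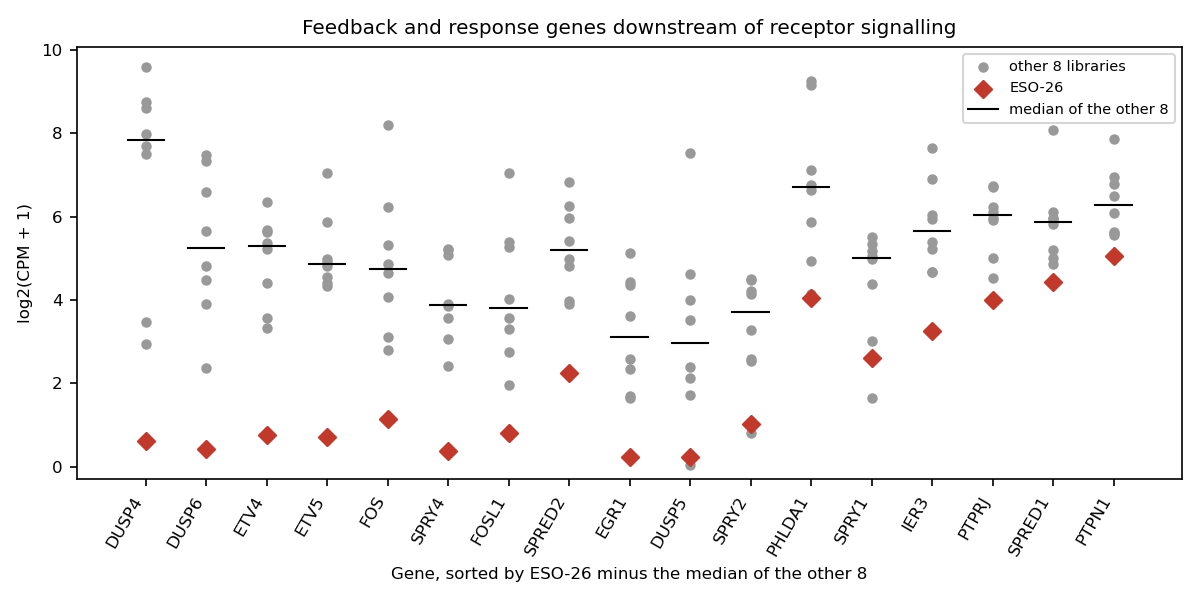
Levels on the log2(CPM + 1) scale (y axis) of 17 feedback and response genes (x axis, sorted by the ESO-26 difference), with ESO-26 as red diamonds, the other 8 libraries as grey points and their median as a line. ESO-26 lies below the median of the others at every gene shown, from -7.23 at DUSP4 to values above -2 at SPRED1 and PTPN1.

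Markers of cell types known for PDGF receptors, KIT or KDR were compared with the same rule. In ESO-26, 3 of 7 fibroblast markers were higher, beside 3.55% of all genes there. They were COL3A1 (311 CPM, against 2.92 CPM in FLO-1), POSTN (108 CPM, against 4 counts in FLO-1) and DCN (13.5 CPM). COL1A1 was lower there (0.577 CPM, 10 counts) and FAP had 0 counts, so the list did not move as one. The summed fibroblast level was 438 CPM in ESO-26 and 1.78 (OE19) to 88.4 CPM (JH_EsoAd1) elsewhere. The mesenchymal transcription factor genes TWIST1 (35.3 CPM) and PRRX1 (14.1 CPM) were also higher in ESO-26, 2 of 11 regulators tested, beside 3.55% of all genes. Their part in the PDGFRA level was not tested.

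Pericyte and smooth muscle markers were at their lowest sum in ESO-26 (12.2 CPM, up to 441 CPM in SK-GT-4), with NOTCH3 and CSPG4 called lower. NOTCH3 was also called lower in OE19, and CSPG4 in OACP4_C, SK-GT-4 and ESO-51. RGS5 (7.67 CPM) made up most of the ESO-26 sum and went the other way, being below SK-GT-4 only and 0.97 above the median, without a call. Of 8 oligodendrocyte precursor markers 5 had 0 counts in ESO-26, and from 3 (OAC_5.1_C) to 6 (FLO-1) did elsewhere. The sum was 0.404 CPM in ESO-26 against 1.58 to 14.1 CPM elsewhere. Of 8 mast cell and haematopoietic markers 7 had 0 counts, with a sum of 0.0577 CPM. Endothelial markers summed to 33.5 CPM in ESO-26, nearly all of it EGFL7 (32.8 CPM), and CDH5, CLDN5, TIE1 and VWF had 0 counts. OE19 also had 4 endothelial markers at 0 counts. In FLO-1, where KDR and KIT were highest, CDH5, the endothelial cadherin gene, was called higher at 8.36 CPM, and the endothelial sum was 88.6 CPM within a range of 11.2 (OE19) to 95.1 CPM (OE33). CDH5 was higher still in JH_EsoAd1 (29.8 CPM), which had 2 counts of KDR. Melanocyte markers summed to 18.4 CPM in ESO-26, of which MITF was 16.9 CPM, within the 3.10 to 39.9 CPM of the other libraries.

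The genes most like PDGFRA over the 9 libraries were those with the smallest root mean square difference between centred log2 profiles, among 14580 genes that reached 5 CPM. They were FAM9C (0.20), CRYAB (0.31), SCRG1 (0.34), DPPA3 (0.92) and COL3A1 (0.96), at 844, 733, 2179, 153 and 311 CPM in ESO-26. All 5 were highest in ESO-26, which a match to a profile with a single high library entails. The other genes had nearest profiles of their own. For CHIC2 these were ALDH6A1, LCORL and STOML1 (0.39 to 0.41), for FIP1L1 KIAA0232, AIMP1 and SLC30A9 (0.22 to 0.25), for LNX1 HID1, AC114488.1 and CA13 (0.45 to 0.47), and for PDGFRB TLX2, TDRP and SMIM32 (0.25 to 0.28). PDGFA was nearest to UTRN, AJUBA and MOB3C (0.56 to 0.63), and PDGFC had no close match, with CTSO, STARD4 and PRKACB all at 1.21. The nearest to PDGFB was TMSB4X (0.84), followed by its pseudogenes TMSB4XP8 and TMSB4XP1, whose reads cannot be told apart from it with certainty.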

How the data were processed

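Total RNA was sequenced from 9 untreated human cell lines, and the design text mentions 3 technical replicates per line. Whether the 1 column per line is a pool of those was not given in the sources used here. The tools listed are STAR 2.6.1d, R 3.6.1 and FastQC 0.11.7, with build GRCh37, per the submitters' processing notes. The counting program, annotation release and strand setting were not given in the sources used here. The deposited table holds raw counts of 52158 named genes, per the file headers and values (1 blank name with 0.00485% to 0.00965% of counts was left out). The deposited file of each line holds counts in more than 1 counting mode, the gene length and the authors' FPKM, per the file headers. Counts outside the table were 25.8% (OE19) to 77.3% (JH_EsoAd1) of those in the files of the lines, and mitochondrial genes took 1.48% (ESO-26) to 24.7% (JH_EsoAd1) of the table. Of 57905 identifiers, 49240 were paired with a name by equal counts in all 9 libraries.

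CPM values were made from the counts with TMM factors estimated on genes at 1 CPM or more in at least 2 libraries (edgeR 4.0.16, R 4.3.3), which ran between 0.831 in JH_EsoAd1 and 1.11 in ESO-51. Differences are on the log2(CPM + 1) scale. CPM per kilobase divides by the deposited gene length. DESeq2 1.42.0 gave alternative size factors. The rest used pandas 2.3.3, scipy 1.17.1, numpy 2.4.6 and matplotlib 3.10.9 in Python 3.11.15. The call step was checked on simulated counts. Ratios carry exact conditional intervals at 95%. A test between lines could not be made with 1 library each. Lists held 159 genes, of which 156 were in the table, and their counts are over members at 1 CPM or more in any library. Named genes are the 10, list members called in ESO-26, up to 3 per list in each other library, and the nearest profiles (5 for PDGFRA, 3 for others). Examples below the call threshold, and GRB2, SHC1, PTPN11, FAP and EGFL7, were named after their values were seen. The 10 genes and all lists were chosen with earlier results of these data known. GENCODE release 29 gave names, order, gene overlaps and the exons left out of printed stretches, and the sequences are from RefSeq on GRCh38.p14, another build than that of the files.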

Additional observations from a re-analysis of the deposited data

How the results depend on the processing

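No paired analysis was possible because each line has 1 library and no numbers are shared. None of the 90 differences between a gene and the other libraries was called in the opposite direction under any alternative. Of the 14 calls, 3 (PDGFRA and PDGFC in ESO-26, PDGFB in OAC_5.1_C) held in every alternative, 6 more were lost with FPKM alone and 5 were lost in another alternative as well or instead. The PDGFRA difference between ESO-26 and the next library, 9.77 on the log2 scale, was 7.84 with a pseudocount of 5, 6.06 with deposited FPKM, 6.93 with rescaled FPKM, and 9.77 to 9.999 without each other library in turn. Higher pairs, 7, were 4 with deposited FPKM and 5 to 8 with each library left out. Lower pairs, also 7, were 4 with a pseudocount of 5, 0 with deposited FPKM, 1 with rescaled FPKM, and 4 to 7 with each library left out, the lowest being without ESO-26. A pseudocount of 5 gave 13 lower pairs of feedback genes (from 23), 4 higher and 1 lower of 4q12 genes (from 7 and 6), and 2 higher and 3 lower of lineage regulators (from 5 and 6). Deposited FPKM gave 1 higher pair of related receptors (from 3), 3 higher and 0 lower of further ligands (from 5 and 1), 10 higher and 0 lower of proteases and co-receptors (from 16 and 17), 3 lower of feedback genes, 3 higher and 1 lower of 4q12 genes, and 2 higher and 0 lower of lineage regulators. Feedback genes lower in ESO-26, 15, were 8 with a pseudocount of 5, 1 with deposited FPKM, 4 with rescaled FPKM and 13 to 15 with each library left out (alternatives chosen after seeing the data, as was the other counting mode). Of the 5 genes most like PDGFRA, 3 were shared with a pseudocount of 5 and 2 with FPKM. PDGFRB in OE33 was 1.31 with a pseudocount of 5, short of a call. CHIC2 in ESO-26, LNX1 in ESO-51 and PDGFC in JH_EsoAd1 were the 3 uncalled pairs that became called in some alternative. Library size alone shifted the median gene by -0.24 in JH_EsoAd1, 0.13 in ESO-51 and 0.12 in OE33 on the log2 scale, and totals without mitochondrial genes by 0.11 in OE19. ESO-26 was the shallowest library, so its counts of 0 allow the most.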
